A study of Homo sapiens with 6 samples.

Results

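The teneurin gene TENM3 was followed in HCT116 cells together with the other teneurins and the adhesion proteins that bind them, the latrophilins and the FLRT proteins. These 10 genes, TENM1 to TENM4, ADGRL1 to ADGRL3 and FLRT1 to FLRT3, were taken by name from the 20020 genes of the count table. TENM3 was selected on its lower counts in the CAD-knockout libraries of this same experiment, so its difference between the groups is given as a description, without a test. The other 9 genes entered as its family and its binding partners.

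The cells were HCT116, an established line from a human colorectal carcinoma. The RNA of CAD-KO+IR cells, in which CAD, the caspase-activated DNase encoded by DFFB, was targeted with Cas9, was sequenced beside that of sgVec+IR cells, the control. The study's text describes stable lines made with the lentiCRISPRv2 plasmid, and places the RNA-seq 24 h after 8 Gy of ionizing radiation (IR) in both groups. Each group had 3 libraries, and the comparison asked which transcripts differ when CAD is lost in irradiated cells. The knockout libraries came from 1 guide, the sources used here do not say whether they came from a clone or from separate cultures, and unirradiated cells were not analysed here. Differences between the lines that are unrelated to CAD cannot be told apart from an effect of the knockout, and p-values measure only the spread between these libraries.

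Teneurins are large cell-surface proteins with a single transmembrane segment, whose extracellular part holds EGF-like repeats and a barrel-shaped domain. They bind each other between cells, and they bind latrophilins, which are adhesion G protein-coupled receptors (GPCRs) with a lectin-like and an olfactomedin-like domain. The FLRT proteins, membrane proteins with leucine-rich repeats, hold latrophilins at the olfactomedin-like domain and also bind the UNC5 netrin receptors. These complexes are best known from the developing nervous system, where TENM3 guides the matching of neurons along the hippocampal and visual pathways.

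The guide named CAD-KO2 in the study's list is shown because it defines the knockout libraries. It has 20 bases and, followed by its PAM (in capitals), matched 10 annotated transcripts of DFFB:
CAD-KO2: gtgcctgtacgaggatggcaCGG
TENM3 lies on the forward strand of chromosome 4, from 182143987 to 182803024 on GRCh38 in GENCODE 29, and RefSeq (GRCh38.p14) gives 2 start sites for it. The 250 bases before each start are shown because a count per gene does not say which start was used. Every CG dinucleotide, where most DNA methylation of human cells is found, is in capitals:
TENM3 first start, chr4:182143713-182143962, forward strand: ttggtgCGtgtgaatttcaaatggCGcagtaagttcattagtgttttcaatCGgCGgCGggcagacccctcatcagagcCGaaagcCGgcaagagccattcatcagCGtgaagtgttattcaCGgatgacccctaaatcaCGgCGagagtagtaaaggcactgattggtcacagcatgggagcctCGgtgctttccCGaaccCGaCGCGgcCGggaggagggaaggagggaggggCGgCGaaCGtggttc
TENM3 second start, chr4:182448766-182449015, forward strand: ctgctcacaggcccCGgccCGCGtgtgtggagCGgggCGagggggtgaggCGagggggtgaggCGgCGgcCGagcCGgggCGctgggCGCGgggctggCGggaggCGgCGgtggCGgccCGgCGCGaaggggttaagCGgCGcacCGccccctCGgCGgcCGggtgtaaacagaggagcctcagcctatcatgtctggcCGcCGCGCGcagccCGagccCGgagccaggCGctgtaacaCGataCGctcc
The first window holds 20 CG dinucleotides, more than 67.6% of the 35116 RefSeq start windows of this length, and the second holds 35, more than 94.2% of them. The median over all windows was 11, and 93.9% of them hold at least 1. The second window is also richer in G and C, at 77.2% against 56.8%. Of the other members, FLRT1 had windows with 42 and 23 CG dinucleotides, TENM4 had 1 with 27, and FLRT3 had 1 with 3. TENM1 had windows with 1 and 8, TENM2 had windows with 1 and 4, and those of ADGRL2 ran from 1 to 23. ADGRL3 had windows with 23 and 16, and FLRT2 had windows with 13, 15 and 21. ADGRL1 had no entry. Neither methylation nor start-site use was measured in these libraries.

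Library totals ran from 14032994 to 19574144 counts. The library sgVec+IR 3 stood apart: 7561 genes were at 0 there against 4577 to 5232 in the other 5 libraries, and 214 genes with at least 20 counts in each of the others had none in it. Its log2 CPM (counts scaled to the same library total) correlated with those of sgVec+IR 1 and 2 at 0.890 and 0.886, while pairs without it ran from 0.969 to 0.993. Sample weights, in which a low value marks a library that departs from its group, were 0.0404 for sgVec+IR 3 and 0.154 for CAD-KO+IR 2, and from 1.79 to 6.75 for the others. The targeted gene DFFB had 185, 192 and 217 counts in CAD-KO+IR 1 to 3 and 357, 335 and 297 in sgVec+IR 1 to 3. Its level was 10.8 ± 1.32 CPM (SD, n = 3) against 21.9 ± 0.995 CPM, a log2 fold change of -1.02 with a standard error (SE) of 0.193, with an adjusted p of 0.550 in edgeR and 0.000458 in DESeq2. The epithelial markers were present in every library, with KRT8 highest and a summed level of 2870 to 4101 CPM in CAD-KO+IR and 2163 to 4239 CPM in sgVec+IR. Of 8 neuronal markers, STMN2 and NEFL had no count, and the sum ran from 84.9 to 110 CPM against 100 to 147 CPM, with SYT1 the highest. The fibroblast markers DCN and LUM and the leukocyte markers CD3E and TYROBP were at 0, and the sums were 25.9 to 39.8 against 12.3 to 48.9 CPM for 7 fibroblast markers, 1.48 to 2.33 against 2.05 to 6.23 CPM for 6 leukocyte markers and 1.0 to 2.62 against 4.28 to 6.07 CPM for 5 endothelial markers. COL1A1 was the highest fibroblast marker, at a mean of 34.0 CPM, and ITGAM the highest leukocyte marker, at 2.26 CPM. The endothelial sums, in which VWF was highest at a mean of 2.28 CPM, did not overlap between the groups. Single tested markers did not overlap for 2 of 7 epithelial and 2 of 6 neuronal markers. This held for 0 of 2 fibroblast, 1 of 2 leukocyte and 1 of 1 endothelial markers, against 10.2% of all genes tested. CDH1, SYT1, ITGAM and VWF were lower in CAD-KO+IR, and KRT18 and GAD1 higher. The part of these differences in the results was not tested.

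TENM3 was about 5-fold lower in CAD-KO+IR cells. It had 146, 150 and 137 counts in CAD-KO+IR 1 to 3 and 678, 515 and 580 counts in sgVec+IR 1 to 3. On the CPM scale the 3 knockout libraries lay at 7.91, 7.91 and 7.80, and the 3 control libraries at 41.5, 35.3 and 40.9. The groups did not overlap, and the libraries that stood apart elsewhere were not the extremes for this gene. The mean levels were 7.87 ± 0.0633 CPM and 39.2 ± 3.44 CPM (SD, n = 3 each), a 4.98-fold difference. The fitted log2 fold change was -2.32 (SE 0.187), -2.28 without sgVec+IR 3, and -2.29 without both sgVec+IR 3 and CAD-KO+IR 2, a pair whose omission was chosen after seeing the data. In bulk RNA, fewer cells with the transcript and less of it per cell cannot be told apart.

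The knockout libraries were closer to each other than counting alone would set. Their SD was 0.804% of the mean, while the counting error at this depth is 8.33% of it. In sgVec+IR the SD was 8.76% of the mean against a counting error of 4.12%. TENM3 was selected by a contrast that favours a small spread within groups, so the closeness of the knockout libraries is a description. GENCODE 29 places 7 other genes over TENM3, 4 of them on the other strand, and 0 of them are rows of the count table.

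TENM3 made up most of the teneurin counts in every library. Its share was 86.9% (exact 95% interval 80.8% to 91.6%), 90.4% (84.8% to 94.4%) and 91.9% (86.4% to 95.8%) in CAD-KO+IR 1 to 3. In sgVec+IR 1 to 3 it was 95.9% (94.2% to 97.2%), 95.5% (93.4% to 97.1%) and 97.8% (96.3% to 98.8%). Since TENM3 was selected on its lower counts, its lower shares in CAD-KO+IR follow from that choice and are no separate result. These intervals cover counting error only, since the reads carry no molecular identifiers. All 4 teneurins summed to 8.78 ± 0.311 CPM in CAD-KO+IR and 40.7 ± 3.33 CPM in sgVec+IR, and without TENM3 the counts left were those of TENM4 and TENM2.

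TENM4, the nearest teneurin in level, had 20, 11 and 9 counts in CAD-KO+IR and 27, 24 and 0 in sgVec+IR. The control libraries 1 and 2 were both above every knockout library, and sgVec+IR 3 was below all of them. The mean level was 0.725 ± 0.312 CPM against 1.10 ± 0.951 CPM, with a log2 fold change of -0.62 (SE 0.854, adjusted p = 1.0 in edgeR). Its size moved with the library left out: the log2 fold change was -1.17 without sgVec+IR 3 (adjusted p = 0.407) and -1.01 without CAD-KO+IR 1, but -0.26 without sgVec+IR 2 and -0.19 without sgVec+IR 1. With sample weights it was -1.38 (adjusted p = 0.0196 in limma), which passed the test. TENM4 lies on the reverse strand of chromosome 11, from 78652831 to 79440948.

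TENM2 and TENM1 were near or at the limit of detection. TENM2 had 2, 5 and 3 counts in CAD-KO+IR and 2, 0 and 13 in sgVec+IR, and 13 of the 15 control counts came from sgVec+IR 3. The ratio of knockout to control was 0.547, with a counting interval of 0.220 to 1.30. TENM1 had no count in any library, which allows up to 0.0546 CPM in CAD-KO+IR and 0.0665 CPM in sgVec+IR (3 counts over each group).

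Among the receptors, ADGRL1 (latrophilin 1) was the highest of the 10 genes and did not separate the groups. It had 3212, 1897 and 2766 counts in CAD-KO+IR and 2856, 2520 and 831 in sgVec+IR. The level was 174, 100.01 and 157 CPM in CAD-KO+IR 1 to 3 and 175, 173 and 58.6 CPM in sgVec+IR 1 to 3, so the low value of each group fell in the library with that group's lowest sample weight. The means were 143.9 ± 38.9 CPM and 135 ± 66.4 CPM, with a log2 fold change of 0.09 (SE 0.426, adjusted p = 1.0 in edgeR). The spread between libraries was 27.0% and 49.1% of the mean, where counting alone gives 1.95% and 2.22%. The direction turned when sgVec+IR 3 was left out, to a log2 fold change of -0.27 (SE 0.223), and without CAD-KO+IR 1, to -0.06. When both low libraries were left out it was -0.06 (SE 0.063). ADGRL1 lies on the reverse strand of chromosome 19, from 14147743 to 14206187.

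The other latrophilins were near 0, and ADGRL1 held at least 99.8% of the latrophilin counts in every library. ADGRL2 had 4, 0 and 1 counts in CAD-KO+IR and 0, 5 and 0 in sgVec+IR. ADGRL3 had 1 count, in CAD-KO+IR 3. Neither depth nor spread allows a comparison of these genes. The latrophilins summed to 144 ± 39.0 CPM in CAD-KO+IR and 135 ± 66.5 CPM in sgVec+IR.

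Among the FLRT genes, FLRT3 had counts in all 3 knockout libraries and was under the detection floor in the control group. It had 9, 10 and 4 counts in CAD-KO+IR and 2, 0 and 0 in sgVec+IR, so the groups did not overlap. The level was 0.414 ± 0.163 CPM against 0.0408 ± 0.0706 CPM, where the floor of 3 counts over the control group is 0.0665 CPM. The ratio of the summed counts was 9.44 with a counting interval of 2.33 to 82.6. The exact two-sided permutation test gave p = 0.1, the smallest that 3 libraries against 3 allow. FLRT3 was below the filter on low counts, and in the edgeR fit without that filter it had an unadjusted p of 0.0323 and an adjusted p of 1.0. Groups that did not overlap were also seen for 10.2% of the 12925 genes tested, a set that leaves out genes below the filter, such as FLRT3. The span of FLRT3 overlaps that of MACROD2, which is on the other strand. Strand use in the counting is not given in the sources used here. Overlap of their exons was not examined, so whether reads of the pair were mixed was not tested.

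FLRT1 had 13, 7 and 10 counts in CAD-KO+IR and 3, 9 and 0 in sgVec+IR. Its groups overlapped, at 0.548 ± 0.169 CPM and 0.267 ± 0.316 CPM (exact permutation p = 0.3, two-sided), and the ratio of summed counts was 2.05 with a counting interval of 1.02 to 4.40. The span of FLRT1 overlaps that of MACROD1, which is also counted. FLRT2 had no count in any library, which allows up to 0.0546 and 0.0665 CPM. The FLRT genes summed to 0.962 ± 0.206 CPM in CAD-KO+IR (0.797 to 1.19) and 0.307 ± 0.308 CPM in sgVec+IR (0 to 0.616).

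Of the 10 genes, 3 passed the filter on low counts. A gene was called when its adjusted p was under 0.05 and it changed at least 1.5-fold, which edgeR gave for 0.0309% of the genes tested and DESeq2 for 0.364%. TENM3 was selected by that contrast. Of the other 2 tested members, TENM4 and ADGRL1, edgeR called 0, also at an unadjusted p under 0.05 (2.18% of all genes tested), and DESeq2 called 0. With sample weights limma called 1, TENM4, against 5.15% of all genes tested.

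Levels were set in order per kb of annotated exon. In sgVec+IR, ADGRL1 was highest at 15.9 ± 7.82 CPM per kb, with libraries from 6.91 to 20.6. TENM3 followed at 3.27 ± 0.287 CPM per kb (2.94 to 3.46), below every ADGRL1 value. FLRT1, TENM4, TENM2, ADGRL2 and FLRT3 came next, with means from 0.00786 to 0.0675 CPM per kb, and each of them was at 0 in at least 1 control library, so their order is not separated. In CAD-KO+IR, ADGRL1 stood at 17.0 ± 4.58 CPM per kb (11.8 to 20.5) and TENM3 at 0.657 ± 0.00528 CPM per kb (0.651 to 0.660). Below them came FLRT1 at 0.139 (0.0935 to 0.178), FLRT3 at 0.0798 (0.0439 to 0.102) and TENM4 at 0.0444 (0.0314 to 0.0664), each overlapping the next, and then TENM2 at 0.0164 (0.00982 to 0.0239), below every TENM4 value. TENM3 was thus the second gene of the order in both groups. Per kb, ADGRL1 was 31.1, 17.9 and 28.5 times TENM3 in CAD-KO+IR 1 to 3, and 5.95, 6.91 and 2.02 times TENM3 in sgVec+IR 1 to 3.

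The tested genes next to TENM3 on chromosome 4 were compared to see whether the lower counts extended along it. Of the 10 genes, 5 on each side, 6 had a log2 fold change above 0 and 4 below 0, the range was -0.46 to 0.30, and the median was 0.03. Of the 10, 0 were called in edgeR (0.0309% of all genes tested) or in DESeq2 (0.364%), 0 had an unadjusted p under 0.05 with a 1.5-fold change (2.18%), and the groups did not overlap for 0 (10.2%). At these shares, counts of 0 among 10 genes do not set the neighbours apart from other genes. The nearest, DCTD (dCMP deaminase), lies 87.0 kb after TENM3 and had a log2 fold change of 0.08 (SE 0.149). On the other side the nearest tested gene, AGA (aspartylglucosaminidase), lies 4701 kb away, and its log2 fold change was -0.07 (SE 0.382). Without sgVec+IR 3 the median of the 10 was 0.22, against -0.01 for all genes tested.

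The genes whose profile was most like that of TENM3 were found by Pearson's r of log2 CPM over the 6 libraries, which share their depth and their groups. Among the first 5 were CSMD3 (r = 0.995), DNAH2 (r = 0.990), TMEM229B (r = 0.989) and TRARG1 (r = 0.986). CSMD3, a large CUB and Sushi domain protein, had 12, 20 and 14 counts in CAD-KO+IR and 702, 680 and 975 in sgVec+IR. DNAH2, an axonemal dynein heavy chain, had 16, 14 and 12 against 93, 93 and 71 counts. TMEM229B ranged from 44 to 56 counts against 90 to 100, and TRARG1 had 0, 0 and 1 counts against 27, 35 and 30. TRARG1 passed the filter on low counts only through sgVec+IR, where it is high, and was under the detection floor in CAD-KO+IR. Each was lower in all 3 knockout libraries, as a likeness to TENM3 requires, and without sgVec+IR 3 their r ran from 0.983 to 0.994.

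The list of other genes of the pathway held 23 genes for proteins that bind these families or act after them, and 17 were tested, 11 with a log2 fold change above 0 and 6 below 0. Their median was 0.09, against -0.01 for all genes tested, and -0.13 without sgVec+IR 3. In edgeR and DESeq2, 0 were called (0.0309% and 0.364% of all genes tested), and 1 had an unadjusted p under 0.05 with a 1.5-fold change (2.18%). The groups did not overlap for 2 of the 17, or 11.8% against 10.2% of all genes tested, so these counts do not set the list apart. The highest of the list were genes of signalling and of the cell surface: ARHGEF12, a guanine nucleotide exchange factor that acts after the G proteins of the 12/13 class, at 349 ± 41.1 against 319 ± 29.7 CPM, DAG1 (dystroglycan) at 230 ± 21.4 against 222 ± 44.3 CPM, and the G protein subunit GNA13 at 174 ± 36.1 against 163 ± 39.0 CPM. Their log2 fold changes were 0.13, 0.05 and 0.09.

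The gene with the unadjusted p under 0.05 was ROBO1, a receptor for Slit proteins that also binds FLRT3. It had 15, 14 and 16 counts in CAD-KO+IR and 1, 1 and 0 in sgVec+IR, without overlap, or 0.821 ± 0.0867 CPM against 0.0432 ± 0.0376 CPM. ROBO1 passed the filter on low counts only through the knockout group, where it is high. Its part in the counts above, and its values and calls that follow, are therefore a description. The ratio of summed counts was 18.5, with a counting interval of 4.83 to 157. Its adjusted p was 1.0 in edgeR (unadjusted p = 0.00534) and 0.331 in DESeq2. With sample weights, limma called ROBO1 higher and NRXN2 lower, 2 of the 17 tested, where 5.15% of all genes tested were called. NRXN2, a neurexin and named here after its values were seen, had 30, 16 and 30 counts in CAD-KO+IR and 46, 56 and 0 in sgVec+IR.

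The other adhesion GPCRs, the wider receptor family of the latrophilins, were listed with 29 genes, of which 28 were in the table and 16 were tested, 5 with a log2 fold change above 0 and 11 below 0, and the median was -0.09, or -0.39 without sgVec+IR 3. In edgeR and DESeq2, 0 were called (0.0309% and 0.364% of all genes tested), and 1 had an unadjusted p under 0.05 with a 1.5-fold change (2.18%). The groups did not overlap for 3 of the 16 (18.8%, against 10.2% of all genes tested), ADGRA3, ADGRD1 and ADGRG5. The highest were ADGRG6 at 161 ± 32.8 against 165 ± 70.3 CPM, ADGRA3 at 132 ± 4.62 against 114 ± 12.1 CPM and ADGRF1 at 112 ± 20.9 against 117 ± 12.6 CPM. ADGRD1 had 19, 4 and 13 counts in CAD-KO+IR and 25, 25 and 69 in sgVec+IR, and the highest value was in sgVec+IR 3. Its 4 counts in CAD-KO+IR 2 are under the filter's minimum. It therefore passed the filter on low counts only with the sgVec+IR libraries, where it is high. Its part in the counts above, its p-values and its calls are thus a description. The log2 fold change was -2.01 (SE 0.709, unadjusted p = 0.0252, adjusted p = 1.0 in edgeR), and -1.29 without sgVec+IR 3. With sample weights, limma called ADGRD1 and ADGRA2 lower, 2 of the 16, where 5.15% of all genes tested were called. Without both CAD-KO+IR 2 and sgVec+IR 3, an omission chosen after seeing the data, edgeR called ADGRA2 and ADGRG5 lower but not ADGRD1. Over all genes, that fit called 139 higher and 301 lower of 13059 tested. ADGRA2, named here after its values were seen, had 248, 104 and 223 counts against 334, 324 and 86.

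**Figure D1:**
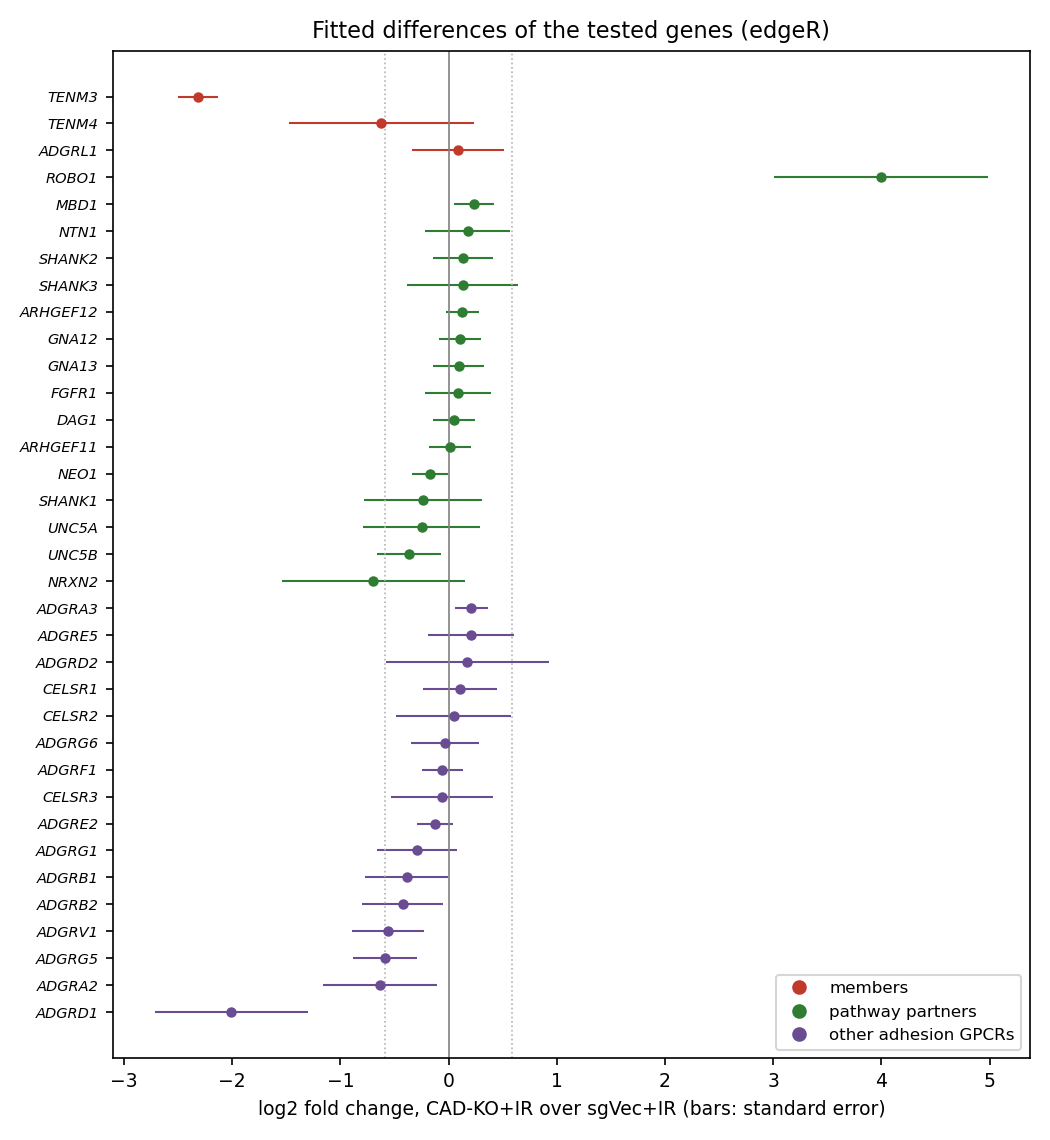
Log2 fold change with SE for tested members, pathway partners and other adhesion GPCRs, from edgeR, with dotted lines at a 1.5-fold change. TENM3 lies at -2.32 with a short bar, TENM4 at -0.62 and ADGRL1 at 0.09 with bars that span 0, and apart from TENM3, ROBO1 at 4.0 and ADGRD1 at -2.01 (-1.29 without sgVec+IR 3) lie farthest from 0. ROBO1 and ADGRD1 each passed the filter on low counts only with the libraries of the group where they are high.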

How the data were processed

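RNA-seq of HCT116 cells was analysed in 6 libraries, 3 of CAD-KO+IR and 3 of sgVec+IR. Reads were trimmed by the authors with fastp, and the deposited values are raw counts per gene from featureCounts (v1.5.0-p3). The aligner, annotation and strand setting are not given in the sources used here. The labels name a mouse build (mm10), while the table holds human genes, so positions come from GENCODE 29 on GRCh38 and are linked by gene identifier only (19823 of 20020 matched).

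Genes were kept by filterByExpr (minimum count 10, total 15), which left 12925. The deposited counts were scaled by TMM, and the groups were compared with the edgeR quasi-likelihood test (edgeR 4.0.16, R 4.3.3, legacy set to FALSE) with Benjamini-Hochberg adjustment over all genes tested. Calls needed an adjusted p under 0.05 with at least a 1.5-fold change. CPM are counts over the TMM-scaled library total, set to a common scale, and CPM per kb divides them by the exon bases of the gene. Correlations used log2 CPM with a prior count of 2. Ratios of summed counts have exact 95% intervals, which cover counting error only. DESeq2 1.42.0, limma-voom (3.58.1) with and without sample weights, other normalizations, filters, dispersions and thresholds, the replicate block, and leaving out each library were alternatives, and leaving out CAD-KO+IR 2 and sgVec+IR 3 together was added after seeing the data. Scripts were tested on simulated data.

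The members, the lists and the alternatives were chosen with earlier results of these data known. Named were all members, DFFB, the 5 tested genes on each side of TENM3 and the 5 most like it, and in the lists each gene called by edgeR or DESeq2 or with an unadjusted p under 0.05, with the 3 highest by CPM. Some genes that fall under these rules are left out.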

Additional observations from a re-analysis of the deposited data

How the results depend on the processing

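The log2 fold change of TENM3 ran from -2.38 to -2.27 over all 18 alternatives. TENM3 was selected by this contrast, so its kept direction is a description and no separate result. The 10 neighbouring genes had 0 calls under every alternative. TENM4 turned to 0.54 with limma-voom and was called at -1.38 with sample weights, and ran from -1.17 to -0.19 with 1 library left out. ADGRL1 turned to -0.11 with sample weights, to -0.06 without CAD-KO+IR 1 and -0.27 without sgVec+IR 3 (0.32, the highest with 1 library left out, without sgVec+IR 1), and -0.06 without both CAD-KO+IR 2 and sgVec+IR 3. The cause of these turns was not tested.

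Over all genes, edgeR called 1 gene higher and 3 lower. DESeq2 called 22 and 25, limma-voom 0 and 0, limma-voom with sample weights 212 and 454, and an unadjusted p under 0.05 gave 99 and 183. Leaving out 1 library gave 0 to 11 higher and 0 to 11 lower, with 11 and 11 without sgVec+IR 3. Without both CAD-KO+IR 2 and sgVec+IR 3, an alternative chosen after seeing the data, 139 and 301 of 13059 genes tested were called. The members besides TENM3 had 1 call lower with sample weights. The pathway partners had 2 calls with sample weights, 1 at an unadjusted p under 0.05 and 2 without both libraries, and the other adhesion GPCRs had 2, 1 and 2. The shares over all genes tested were 5.15% with sample weights and 2.18% at an unadjusted p under 0.05. The calls without both libraries stand beside 139 and 301 of 13059 genes tested. ROBO1 and ADGRD1, which passed the filter only with the group where they are high, are among the list genes counted here. DFFB passed the test in DESeq2, with sample weights (log2 fold change -0.92) and without both libraries (-0.996).

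The replicate block called 0 genes higher and 0 lower. Same-numbered libraries correlated in their deviations from the group means at 0.468, -0.545 and -0.379. With 3 libraries per group and sgVec+IR 3 standing apart, these values cannot show whether same-numbered libraries share a culture or batch. The labels give only a number, and the libraries were not treated as pairs. At these depths a gene under 3 counts over a group, 0.0546 CPM in CAD-KO+IR and 0.0665 CPM in sgVec+IR, was not detectable. This covers TENM1, FLRT2 and ADGRL3 in both groups, FLRT3 and ROBO1 in sgVec+IR, and TRARG1 in CAD-KO+IR.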
